A study of Mus musculus castaneus and Mus musculus domesticus and Mus musculus with 11 samples.

Results

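Expression of 9 marker genes of spinal interneurons and of fast synaptic transmission was measured in motor neuron cultures of 3 mouse lines. En1, Pax2, Lhx5 and Sim1 encode transcription factors of ventral spinal interneurons. Gad1, Gad2 and Slc32a1 make or load the transmitter GABA, Slc6a5 takes up glycine, and Slc17a6 loads glutamate into vesicles. The genes were chosen by name and not by a rule on their values, but with earlier results of these data known. They were looked up by Ensembl gene ID. Of the 9, 8 were found among the 27071 genes of the read matrix, and all 8 passed the filter on low counts. Sim1 was not analysed here.

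Polyadenylated RNA was sequenced from motor neurons that were differentiated from stem cells, with 3 libraries (replicates 1 to 3) for each line. One line was of the laboratory strain 129S6/SvEv (below, 129), one of CAST/EiJ, an inbred strain from wild mice (CAST), and one a CASTx129 cross with the strain label 129CAS (the hybrid). No treatment, time point, sex or purification of the motor neurons is given in the sources used here, and it is not said if the 3 libraries per line were separate cultures or repeats of one. P-values therefore measure only the spread between these libraries, which may be technical. Another 2 CAST samples, numbered 7 and 8, were not analysed here.

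In the ventral spinal cord, motor neurons and several classes of interneuron, named V0 to V3, arise from neighbouring progenitor domains. V1 neurons carry En1 and are inhibitory, V3 neurons carry Sim1 and are excitatory, and Pax2 and Lhx5 mark inhibitory classes of ventral and dorsal cord. Inhibitory neurons make GABA from glutamate with the enzymes GAD67 (Gad1) and GAD65 (Gad2), recapture glycine with the transporter GlyT2 (Slc6a5), and load both into vesicles with the transporter VGAT (Slc32a1). Excitatory spinal neurons load glutamate with the transporter VGLUT2 (Slc17a6), which motor neurons can carry too.

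Total counts per library ran from 7763077 to 18167577, and 14839 genes were tested. The 5 markers checked for the labelled cell type were read in all 9 libraries. The motor neuron factor Mnx1 was at 0.495 to 4.88 CPM (read counts scaled to a common library size), with 7 counts in hybrid 1. Isl1 was at 13.1 to 62.7 CPM, and the acetylcholine enzyme Chat at 5.52 to 28.4 CPM. The acetylcholine transporter Slc18a3 ran from 23.5 to 126 CPM and the choline transporter Slc5a7 from 15.9 to 258 CPM. Other motor neuron factors were scarcer: Lhx3 had 0 counts in hybrid 1 and 2 each in CAST 2 and CAST 3. Isl2 had 2 counts in hybrid 3. Markers of all neurons (9 genes) summed to 2231 to 6129 CPM in 129, 3279 to 7315 CPM in CAST and 2385 to 5360 CPM in the hybrid. Fibroblast markers (9 genes) summed to 3668 to 18036, 458 to 4291 and 909 to 19021 CPM in the same order. CAST 1 and hybrid 2 stood apart in that long transcripts were relatively scarce: each doubling of exon length went with a change of −0.49 and −0.60 in log2 CPM relative to the gene's own mean. In the other libraries this value ran from −0.25 to 0.31.

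Both inhibitory and excitatory transmitter genes were read in every library of every line, and the glutamate transporter Slc17a6 had the highest mean level per length in each line. The order of the members was judged in RPKM, the CPM of a gene per kilobase of its exons. Over the 9 libraries the mean RPKM was 11.4 ± 5.78 for Slc17a6, 6.401 ± 2.85 for Gad2, 4.12 ± 1.55 for Slc32a1 and 2.57 ± 0.579 for Gad1 (SD, n = 9). It was 1.73 ± 0.954 for En1, 1.06 ± 0.380 for Pax2, 1.01 ± 1.06 for Slc6a5 and 0.173 ± 0.138 for Lhx5. The transmitter genes other than Slc6a5 thus stood above the transcription factors.

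No pair of neighbours in this order was separated over all 9 libraries. Slc17a6 was above Gad2 in 8 of 9 libraries, the exception being CAST 1, and Gad2 was above Slc32a1 in 6 of 9. Slc32a1 was above Gad1 in 8 of 9, Gad1 above En1 in 8, En1 above Pax2 in 8, Pax2 above Slc6a5 in 6 and Slc6a5 above Lhx5 in 8. The place of Slc6a5 differed by line: its rank was 5 of 8 in 129, at 2.16 ± 1.09 RPKM, and 7 of 8 in CAST and the hybrid, at 0.467 ± 0.484 and 0.385 ± 0.205 RPKM (SD, n = 3 each). Among all tested genes ranked by mean RPKM, Slc17a6 lay at percentile 68.3, Gad2 at 52.3 and Slc32a1 at 41.1. Gad1 lay at 31.1, En1 at 24.4, Pax2 at 17.4, Slc6a5 at 16.8 and Lhx5 at 1.66.

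**Figure D1:**
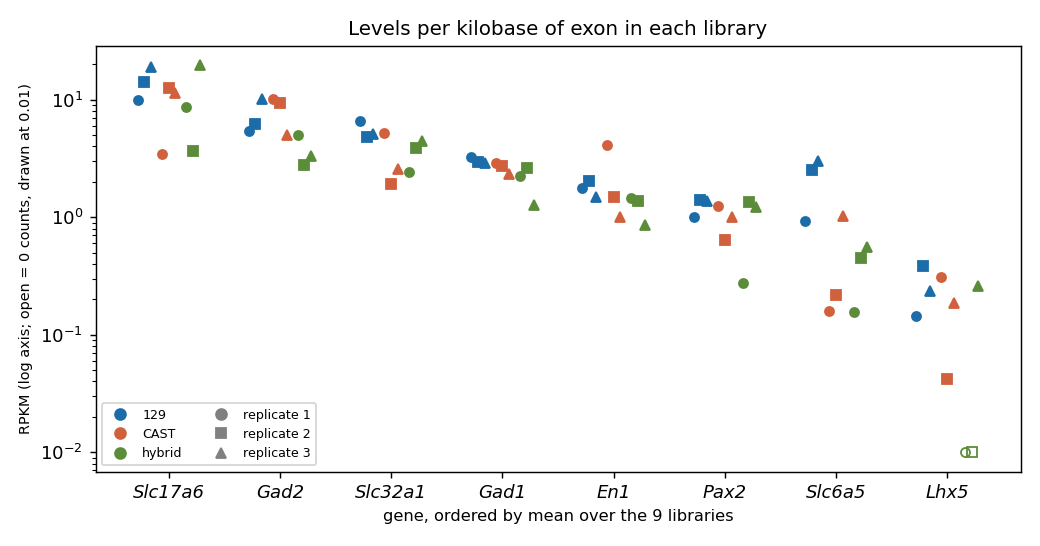
Level of each of the 8 genes in RPKM (log axis) in each of the 9 libraries, by line (colour) and replicate (shape), ordered by the mean over all libraries. Slc17a6 is at the top with a mean of 11.4 RPKM and Lhx5 at the bottom with 0.173 RPKM. Slc6a5 runs from 0.157 to 3.02 RPKM, with 129 2 and 129 3 at the upper end, and open symbols are libraries with 0 counts of Lhx5.

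None of the 8 members passed the test in any comparison between lines (edgeR's quasi-likelihood test, Benjamini-Hochberg adjusted over all 14839 genes, threshold 0.05). For CAST against 129 the count was 0 of 8, where 0.917% of all tested genes passed (1 of the 8 at an unadjusted p under 0.05, 0 by DESeq2). For the hybrid against 129 it was 0 of 8, where 7.02% of all genes passed (2 of the 8 at an unadjusted p under 0.05, and Slc6a5 by DESeq2). For the hybrid against CAST it was 0 of 8, where 6% of all genes passed (1 of the 8 at an unadjusted p under 0.05, 0 by DESeq2). Over all tested genes an unadjusted p under 0.05 was reached by 14.6%, 22.2% and 15.8% in the same order, shares near those of the members. A joint test for any difference among the 3 lines called 0 of 8 against 8.03% of all genes (1 at an unadjusted p under 0.05, 1 by DESeq2).

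The direction was nonetheless uneven in the hybrid. All 8 members had a negative log2 fold change in the hybrid against 129, with a median of −0.60, while 7307 of the 14839 tested genes were negative and their median was 0.02. Some other neuronal lists leaned the same way, with 0 called by edgeR. Negative were 8 of 9 motor neuron markers (median −0.75), 8 of 9 tested other ventral interneuron factors (−0.91) and 6 of 9 markers of all neurons (−0.66). Other lists did not lean so. Negative there were 3 of 9 tested dorsal interneuron factors (median 0.38), 4 of 9 genes of glutamate transport and turnover (0.13) and 5 of 10 interneuron peptides and calcium-binding proteins (−0.0065). The genes of GABA and glycine uptake, turnover and scaffold had 4 of 8 tested negative (−0.38). In 5 of the 8 members, En1, Gad1, Gad2, Slc32a1 and Slc6a5, every hybrid library lay below every 129 library. Such a separation was seen downward in 16.9% of all tested genes and in either direction in 37.5%. CAST against 129 was negative in 6 of 8 members (median −0.48, and 0.06 over all genes). Of the 8, Gad1 alone was separated there, downward, as were 13.5% of all genes, or 28.6% in either direction. The hybrid against CAST was negative in 6 of 8 (median −0.33, and −0.08 over all genes), with 0 of 8 separated, and 19.2% of all genes separated in either direction. The comparisons with 129 share the 129 libraries, so their values are not independent of each other.

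**Figure D2:**
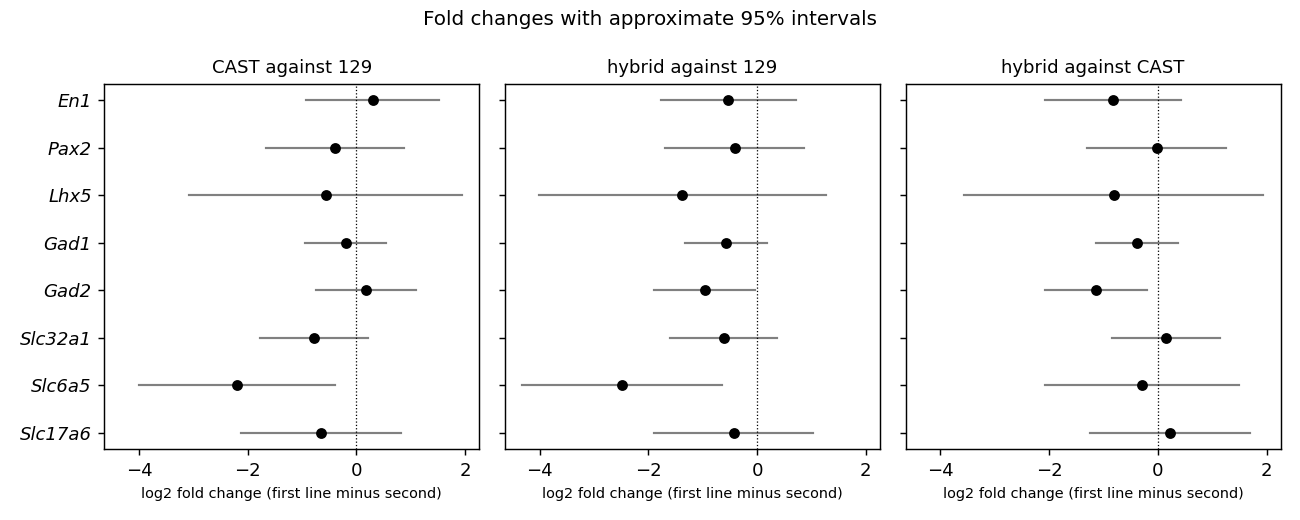
Log2 fold change of each member in the 3 comparisons (points), with approximate 95% intervals (lines) taken from the quasi-likelihood F statistic. The points for Slc6a5 against 129 lie farthest from 0, at −2.20 for CAST and −2.49 for the hybrid, and the intervals of Lhx5 are the widest.

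Slc6a5 encodes GlyT2, the plasma membrane transporter that refills glycinergic terminals (ENSMUSG00000039728, GRCm38 chromosome 7, 49910146 to 49963856, plus strand). It stood at 6.73, 18.23 and 21.8 CPM in 129 1 to 3, at 1.14, 1.57 and 7.38 CPM in CAST 1 to 3, and at 1.13, 3.21 and 3.98 CPM in hybrid 1 to 3. All hybrid libraries lay below all 129 libraries, while CAST 3 lay just above 129 1. On the log2 scale the hybrid differed from 129 by −2.49 ± 0.82 (SE), with a 95% interval from −4.33 to −0.65 (edgeR adjusted p = 0.118, unadjusted p = 0.0132).

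For CAST against 129 the log2 fold change of Slc6a5 was −2.20 ± 0.80, with an interval from −4.01 to −0.40 (edgeR adjusted p = 0.253, unadjusted p = 0.0218). The difference between the hybrid and CAST was −0.29 ± 0.79, with an interval from −2.07 to 1.49 (edgeR adjusted p = 0.929). This is the member with the largest differences from 129 in both comparisons. DESeq2 called the hybrid lower than 129 (adjusted p = 0.0184), and so did edgeR without CAST 3 (adjusted p = 0.0486). So did edgeR with replicate number as a block in the fit, though these numbers do not pair the libraries by design. Over all alternatives the adjusted p ran from 0.0184 to 0.301. CAST was not called against 129 under any alternative (adjusted p from 0.0688 to 0.615), and without CAST 3 its log2 fold change was −3.51. The hybrid-to-CAST difference was 1.003 without CAST 3, 0.084 without hybrid 1 and 0.085 with an offset for exon length.

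Within 129, the library with the least Slc6a5, 129 1, also had the lowest sum of markers of all neurons (2231 CPM, against 3529 and 6129 in 129 2 and 129 3) and the highest sum of fibroblast markers (18036 CPM, against 12993 and 3668). Among the hybrid libraries, hybrid 1 likewise had the least Slc6a5, the lowest neuron sum (2385 CPM) and the highest fibroblast sum (19021 CPM). In CAST the order was the reverse. CAST 1 had the least Slc6a5 but the highest neuron sum (7315 CPM) and the lowest fibroblast sum (458 CPM). CAST 3 had the most Slc6a5, with the lowest neuron sum (3279 CPM) and the highest fibroblast sum (4291 CPM). Between 129 and the hybrid the sums of both lists overlapped, and their part in the difference was not tested. In these bulk libraries, fewer glycinergic cells and less Slc6a5 RNA per cell cannot be told apart.

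Gad1 and Gad2 encode the 2 GABA-synthesizing enzymes. Gad1 (ENSMUSG00000070880, chromosome 2, 70553072 to 70602014, plus strand) supplies most of the GABA of the cell. It was the steadiest member, at 24.96, 22.3 and 22.2 CPM in 129 1 to 3, at 21.9, 20.8 and 17.9 CPM in CAST, and at 17.1, 19.8 and 9.71 CPM in the hybrid. Every CAST and every hybrid library lay below every 129 library, with hybrid 3 the lowest. CAST against 129 gave a log2 fold change of −0.20 ± 0.33 (95% interval −0.95 to 0.55, edgeR adjusted p = 0.759) and −0.58 ± 0.34 for the hybrid against 129 (−1.33 to 0.18, adjusted p = 0.324). With an exon length offset both moved up, to 0.27 and −0.016. For the hybrid against CAST it was −0.38 ± 0.34 (−1.13 to 0.38, adjusted p = 0.716).

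Gad2 (ENSMUSG00000026787, chromosome 2, 22622205 to 22693874, plus strand) encodes the enzyme of synaptic terminals. Its values were 31.8, 36.7 and 59.9 CPM in 129, 60.0, 55.2 and 29.5 CPM in CAST, and 29.6, 16.2 and 19.6 CPM in the hybrid, each in the order of replicates 1 to 3. The hybrid libraries were all below those of 129, and hybrid 1 lay just above CAST 3, the lowest CAST library. The mean was 42.8 ± 14.99 CPM in 129, 48.2 ± 16.4 CPM in CAST and 21.8 ± 6.98 CPM in the hybrid (SD, n = 3 each).

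Gad2 gave a log2 fold change of −0.97 ± 0.41 for the hybrid against 129 (95% interval −1.90 to −0.04, edgeR adjusted p = 0.211, unadjusted p = 0.0430). For the hybrid against CAST it was −1.14 ± 0.42 (−2.08 to −0.21, adjusted p = 0.194, unadjusted p = 0.0219), and for CAST against 129 it was 0.17 ± 0.41 (−0.75 to 1.09, adjusted p = 0.834). Neither hybrid difference was called under any alternative, and the one against CAST was −0.73 without both CAST 1 and hybrid 2. The small parental difference was negative without 129 1 or without CAST 1, at −0.0092 and −0.026.

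The relation between both enzymes varied by library. Per length, Gad2 was 1.66, 2.14 and 3.50 times Gad1 in 129 1 to 3, 3.56, 3.45 and 2.14 times in CAST, and 2.25, 1.06 and 2.63 times in the hybrid. Gad2 was thus above Gad1 in all 9 libraries, by the least in hybrid 2.

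Slc32a1 encodes the vesicular transporter of GABA and glycine, shared by all inhibitory neurons (ENSMUSG00000037771, chromosome 2, 158610767 to 158615748, plus strand). It stood at 18.6, 13.4 and 14.4 CPM in 129 1 to 3, at 14.6, 5.39 and 7.24 CPM in CAST, and at 6.79, 10.9 and 12.5 CPM in the hybrid. The 129 libraries were above the hybrid ones and above CAST 2 and CAST 3, and CAST 1 fell among them. An antisense gene overlaps 24.9% of the exonic bases of Slc32a1, and since the strand setting of the counts is not known, reads of both cannot be told apart.

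For Slc32a1 the log2 fold change was −0.77 ± 0.44 for CAST against 129 (95% interval −1.77 to 0.22, edgeR adjusted p = 0.427) and −0.62 ± 0.44 for the hybrid against 129 (−1.61 to 0.37, adjusted p = 0.403). Between the hybrid and CAST it was 0.16 ± 0.44 (−0.84 to 1.15, adjusted p = 0.929). Without both CAST 1 and hybrid 2 the value for CAST against 129 was −1.32 (edgeR adjusted p = 0.162, unadjusted p = 0.00986). With the exon length offset it was −1.12 (adjusted p = 0.145), and that of the hybrid against 129 was −0.93 (adjusted p = 0.137). Over all alternatives the adjusted p ran from 0.145 to 0.709 for CAST and from 0.137 to 0.624 for the hybrid against 129.

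Slc17a6 encodes VGLUT2, the vesicular glutamate transporter of most excitatory spinal neurons (ENSMUSG00000030500, chromosome 7, 51622006 to 51671119, plus strand). Its level was 53.2, 77.0 and 102 CPM in 129 1 to 3, 18.5, 68.1 and 61.1 CPM in CAST, and 47.0, 19.6 and 106 CPM in the hybrid. The lowest values were those of CAST 1 and hybrid 2, the libraries in which long transcripts were scarce, and the highest was that of hybrid 3. All 3 lines overlapped.

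Slc17a6 had a log2 fold change of −0.65 ± 0.65 for CAST against 129 (95% interval −2.12 to 0.82, edgeR adjusted p = 0.614) and −0.43 ± 0.65 for the hybrid against 129 (−1.89 to 1.04, adjusted p = 0.688). Between the hybrid and CAST it was 0.22 ± 0.65 (−1.24 to 1.69, adjusted p = 0.931). Without both CAST 1 and hybrid 2 the differences from 129 were −0.29 and 0.000151. Without CAST 1 alone the hybrid-to-CAST value was −0.15, and without hybrid 3 alone −0.57.

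**Figure D3:**
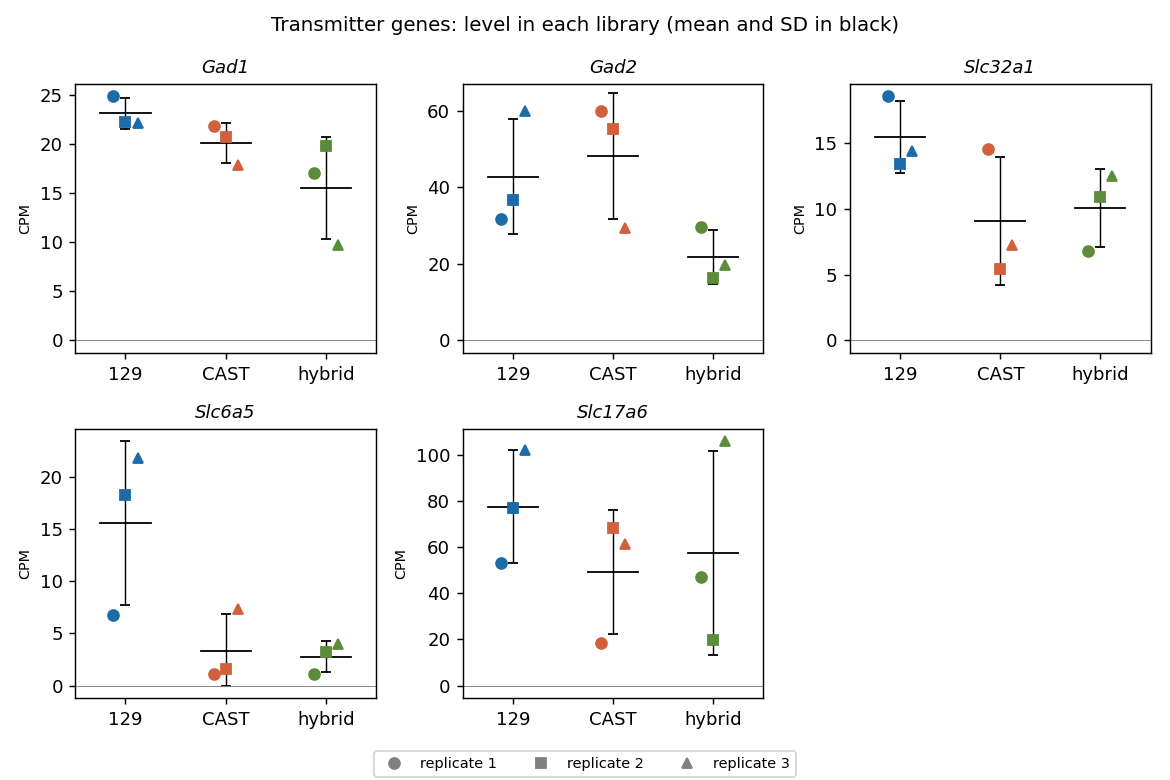
CPM of the 5 transmitter genes in each library (points; shape gives the replicate), with the mean and SD of each line in black, lower bars stopping at 0. Slc6a5 is at 6.73 to 21.8 CPM in 129 and at 1.13 to 3.98 CPM in the hybrid, Gad2 is lowest in the hybrid, and Slc17a6 overlaps in all lines.

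Set against each other within a library, the transporters for inhibitory and for excitatory vesicles gave a ratio that followed the library more than the line. Per length, Slc32a1 was 0.674, 0.336 and 0.272 times Slc17a6 in 129 1 to 3, 1.52, 0.153 and 0.229 times in CAST 1 to 3, and 0.279, 1.08 and 0.228 times in hybrid 1 to 3. The ratio was above 1 only in CAST 1 and hybrid 2. Exons of Slc32a1 span 2797 bases and those of Slc17a6 span 5399, and the part of transcript length in this ratio was not tested. The ratio of the glycine transporter to the vesicle transporter, Slc6a5 to Slc32a1 per length, was 0.141, 0.528 and 0.589 in 129, 0.0303, 0.113 and 0.396 in CAST, and 0.0647, 0.115 and 0.124 in the hybrid. Each hybrid library lay below each 129 library in this ratio, and CAST overlapped with both. Exons of Slc6a5 span 7203 bases, against 2797 for Slc32a1, and the part of transcript length was not tested here either.

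En1, the homeodomain factor of V1 interneurons, which include Renshaw cells (ENSMUSG00000058665, chromosome 1, 120602418 to 120607992, plus strand), was read at low levels in all libraries, with 26 to 104 counts each. It stood at 4.67, 5.37 and 3.91 CPM in 129 1 to 3, at 10.7, 3.87 and 2.65 CPM in CAST, and at 3.82, 3.63 and 2.24 CPM in the hybrid. CAST 1 was 4.05 times CAST 3, and the hybrid libraries lay just below those of 129. CAST differed from 129 by 0.30 ± 0.55 on the log2 scale (95% interval −0.93 to 1.52, edgeR adjusted p = 0.778). It was −0.53 without CAST 1.

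For the hybrid the log2 fold change of En1 was −0.53 ± 0.55 against 129 (95% interval −1.77 to 0.71, edgeR adjusted p = 0.556) and −0.83 ± 0.56 against CAST (−2.07 to 0.42, adjusted p = 0.589). Without CAST 1 the value against CAST was −0.025.

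Pax2, a paired-box factor of inhibitory interneurons, also known from kidney and the midbrain-hindbrain boundary (ENSMUSG00000004231, chromosome 19, 44756045 to 44837871, plus strand), stood at 5.39, 7.56 and 7.47 CPM in 129 1 to 3. It was at 6.71, 3.48 and 5.38 CPM in CAST and at 1.49, 7.27 and 6.64 CPM in the hybrid. Hybrid 1 was far below the other hybrid libraries, which lay within the range of 129. The log2 fold change was −0.40 ± 0.57 for CAST against 129, −0.42 ± 0.57 for the hybrid against 129 and −0.02 ± 0.57 for the hybrid against CAST (edgeR adjusted p = 0.719, 0.653 and 0.993). The 95% intervals ran from −1.67 to 0.88, −1.69 to 0.86 and −1.30 to 1.26. Without hybrid 1 the last 2 values were −0.0082 and 0.43.

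Lhx5, a LIM homeodomain factor of inhibitory classes (ENSMUSG00000029595, chromosome 5, 120431699 to 120441223, plus strand), was the lowest member, with 62 counts in all. Its counts were 7, 17 and 11 in 129 1 to 3, 8, 2 and 7 in CAST, and 0, 0 and 10 in the hybrid. A count of 0 allows up to 0.212 CPM in hybrid 1 and 0.419 CPM in hybrid 2, taking 3 counts as the limit and counting error alone. The value of hybrid 3, 0.699 CPM, was above that of 129 1, 0.389 CPM. The log2 fold changes were −0.57 ± 1.12, −1.38 ± 1.18 and −0.81 ± 1.22 for CAST against 129, the hybrid against 129 and the hybrid against CAST (edgeR adjusted p = 0.796, 0.476 and 0.857). Differences in Lhx5 were not detectable at this depth, and the intervals reached from −4.02 to 1.94 over the comparisons with 129.

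**Figure D4:**
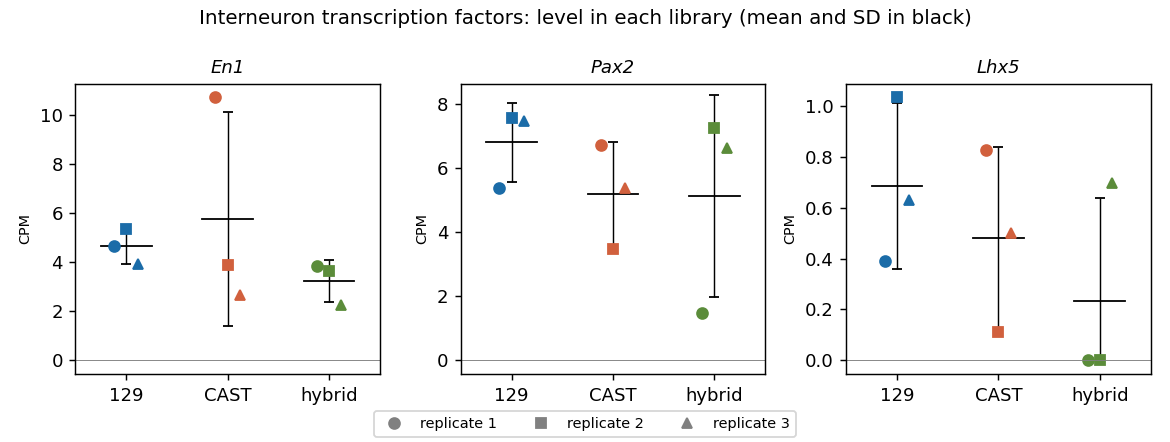
CPM of the transcription factors En1, Pax2 and Lhx5 in each library (points; shape gives the replicate), with the mean and SD of each line in black, lower bars stopping at 0. Single libraries stand away from their line: CAST 1 for En1 at 10.7 CPM, hybrid 1 for Pax2 at 1.49 CPM, and hybrid 3 for Lhx5 at 0.699 CPM, where the other hybrid libraries have 0 counts.

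Because En1, Pax2 and the GAD genes are also used outside the spinal cord, markers of such tissues were summed in the same libraries. Forebrain GABAergic markers (6 genes, among them Dlx2 and Lhx6) summed to 2.38 to 14.0 CPM in all libraries, and midbrain-hindbrain markers (6 genes) to 2.99 to 13.3 CPM, led on average by En2. The boundary signals Fgf8 and Wnt1 did not exceed 0.111 and 0.349 CPM. Kidney lineage markers (6 genes, led by Osr1 and Gdnf) summed to 7.90 to 30.3 CPM. Islet markers (6 genes) summed to 73.4 to 232 CPM, nearly all from Chga and Nkx6-1, which neurons and ventral progenitors also express, while Ins1 had 0 counts in all libraries. Gcg of the same list was read in all 9 libraries, from 0.516 CPM in CAST 1 to 8.45 CPM in 129 3. EdgeR called 0 members of these 4 lists in each comparison. Counted by an unadjusted p under 0.05, CAST against 129 had 1 of 4 tested kidney markers and 2 of 3 tested islet markers. The latter were Gcg, lower in CAST, and Nkx6-1, higher in CAST. The forebrain and midbrain-hindbrain lists had 0 of 5 and 0 of 2 there. The hybrid against 129 had 0 in all 4 lists, and the hybrid against CAST had 1 of 3 islet markers alone. Over all tested genes the shares were 14.6%, 22.2% and 15.8% in these 3 comparisons.

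Other factors of ventral interneurons were measured beside the members. Of 17 such genes, 9 were tested and edgeR called 0 in each comparison (2, 0 and 2 at an unadjusted p under 0.05 for CAST against 129, the hybrid against 129 and the hybrid against CAST). The V2b factor Gata2 was at 21.5 ± 11.6 CPM in 129, 17.3 ± 2.73 CPM in CAST and 20.2 ± 9.91 CPM in the hybrid. Foxp2, carried by part of the V1 class, was at 19.7 ± 3.39, 11.1 ± 9.21 and 20.7 ± 14.8 CPM (SD, n = 3 each). The V0 factors Dbx1 and Evx1 did not pass the filter on low counts.

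Of 16 factors of dorsal interneurons, 9 were tested, and Lmx1b alone passed, in both comparisons with 129. Lmx1b, a LIM homeodomain factor of excitatory dorsal neurons and of serotonergic neurons, stood at 1.45, 0.915 and 3.68 CPM in 129 1 to 3, 10.2, 21.6 and 21.6 CPM in CAST, and 12.3, 9.22 and 9.99 CPM in the hybrid. It was higher in CAST than in 129 by 3.14 ± 0.57 on the log2 scale (edgeR adjusted p = 0.0412). That call ended without 129 1, 129 2, CAST 2, CAST 3 or any 1 hybrid library (adjusted p from 0.0503 to 0.178). It also ended with the 2 lines alone in the fit (0.083) and with replicate number as a block. The hybrid was higher than 129 by 2.38 ± 0.56 (edgeR adjusted p = 0.0330). This call ended without 129 1, 129 2, CAST 2 or any 1 hybrid library (adjusted p from 0.0526 to 0.134), and with the replicate block. The hybrid and CAST differed by −0.76 ± 0.53 (adjusted p = 0.604).

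Genes that clear GABA and glycine from the synapse or hold their receptors in place differed between the hybrid and both parental lines for a pair of genes. Of 9 genes, 8 were tested. Slc6a9 encodes GlyT1, the glycine transporter that clears glycine mainly into glia, and Gphn encodes gephyrin, the scaffold under glycine and GABA-A receptors. EdgeR called Slc6a9 lower and Gphn higher in the hybrid against each parental line, and 0 of the 8 in CAST against 129 (0 at an unadjusted p under 0.05).

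Slc6a9 stood at 4.10, 1.68 and 4.26 CPM in hybrid 1 to 3, against 27.4, 32.5 and 54.1 CPM in 129 and 27.4, 21.8 and 42.0 CPM in CAST. All hybrid libraries were far below all others. The log2 fold change was −3.48 ± 0.50 against 129 (edgeR adjusted p = 0.00289) and −3.16 ± 0.49 against CAST (adjusted p = 0.00462). Both calls held under every alternative run, with adjusted p of at most 0.0137 and 0.0185. Genes on the other strand overlap 30.2% of its exonic bases, so part of its reads may belong to them.

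Gphn stood at 765, 4442 and 1086 CPM in hybrid 1 to 3, against 48.0, 66.9 and 105 CPM in 129 and 124, 75.0 and 55.3 CPM in CAST. Hybrid 2 was highest, and all hybrid libraries were above all others. Its log2 fold change was 4.84 ± 0.83 against 129 (edgeR adjusted p = 0.00731) and 4.63 ± 0.82 against CAST (adjusted p = 0.00873), and without hybrid 2 it was 3.67 and 3.50. The call against 129 ended without 129 2 (edgeR adjusted p = 0.0506). That against CAST ended with replicate number as a block in the fit (edgeR adjusted p = 0.0535).

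Beside these, Slc38a1, a glutamine transporter, was at 495 ± 78.7 CPM in 129, 342 ± 264.5 CPM in CAST and 145 ± 119 CPM in the hybrid and did not pass. Of 9 genes of glutamate transport and turnover all were tested and 0 passed in each comparison (0, 2 and 1 at an unadjusted p under 0.05). The glial glutamate transporter Slc1a3 was at 94.97 ± 50.2, 329 ± 292 and 181 ± 119 CPM in 129, CAST and the hybrid (SD, n = 3 each).

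Of 10 interneuron peptides and calcium-binding proteins all were tested, and Pvalb alone passed, in both comparisons of the hybrid. An unadjusted p under 0.05 was reached by 4 of the 10 in each comparison with 129 and 2 in the hybrid against CAST. Over all tested genes the shares were 14.6% in CAST against 129, 22.2% in the hybrid against 129 and 15.8% in the hybrid against CAST. The 4 in CAST against 129 were Calb1, higher in CAST (log2 fold change 2.45), and Penk, Nos1 and Reln, lower (−3.09, −2.07 and −2.10). Each of the 4 was separated between these lines, and none passed there. Pvalb encodes parvalbumin, a calcium buffer of fast-spiking interneurons and of proprioceptive sensory neurons. It stood at 2.90, 23.5 and 11.1 CPM in hybrid 1 to 3, at 0.5003 to 1.22 CPM in 129 and at 0.215 to 1.14 CPM in CAST. The log2 fold change was 3.98 ± 0.86 against 129 (edgeR adjusted p = 0.0226) and 4.36 ± 0.90 against CAST (adjusted p = 0.0183). The call against 129 ended without 129 1, 129 2, 129 3, hybrid 2 or hybrid 3 (edgeR adjusted p from 0.0510 to 0.111). That against CAST ended without CAST 2 or CAST 3 (0.0818 and 0.0692) and with the 2 lines alone in the fit (0.0570). Both also ended with replicate number as a block in the fit.

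**Figure D5:**
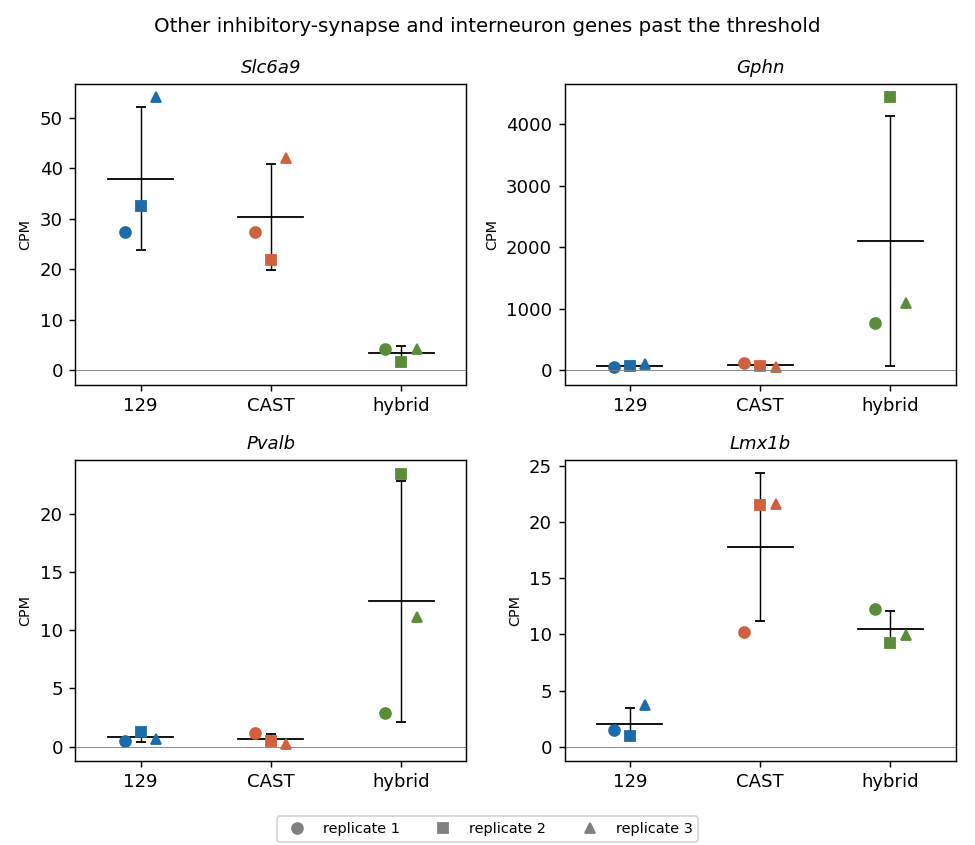
CPM of Slc6a9, Gphn, Pvalb and Lmx1b in each library (points; shape gives the replicate), with the mean and SD of each line in black. The hybrid lies below both parental lines for Slc6a9, above them for Gphn and Pvalb, and above 129 for Lmx1b.

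Lists of neurons, progenitors and other cells held 1 called gene. Their counts at an unadjusted p under 0.05 stand against 14.6%, 22.2% and 15.8% of all tested genes. EdgeR called 0 of 9 motor neuron markers (1, 1 and 0 at an unadjusted p under 0.05 in CAST against 129, the hybrid against 129 and the hybrid against CAST), led by Prph and Slc5a7. It called 0 of 9 markers of all neurons, led by Stmn2 and Tubb3 (0 in each at an unadjusted p under 0.05), and 0 of 5 tested progenitor markers, led by Vim and Nes (1, 0 and 1). The count was 0 of 5 tested astrocyte markers, led by Fabp7 and Aldh1l1 (0, 2 and 1), and 0 of 9 fibroblast markers, led by Col1a1 and Col1a2 (4, 1 and 4). The 2 astrocyte markers in the hybrid against 129 were Gfap and Fabp7, both higher in the hybrid. Their log2 fold changes were 4.03 and 1.69 (edgeR adjusted p = 0.0691 and 0.134), while 2 of the 5 tested astrocyte markers were negative there. Among 5 tested oligodendrocyte markers only Mog, a myelin surface protein, passed. It was at 13.1, 5.59 and 22.5 CPM in the hybrid and at 0 counts in all CAST libraries, at least 212-fold higher with 3 counts over the group as the floor (edgeR adjusted p = 0.0168). The call ended without CAST 2 (edgeR adjusted p = 0.0512) and with replicate number as a block in the fit. Mog was also higher in the hybrid than in 129, where 10 counts were all in 129 1 (adjusted p = 0.0337). That call ended without 129 2, 129 3 or any 1 hybrid library (edgeR adjusted p from 0.0505 to 0.110), with the replicate block, and by DESeq2 (0.0553).

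Genes whose profile over the 9 libraries was most like that of the members were found by the root mean square difference of log2 CPM after each gene's own mean was removed. For the mean profile of Gad1, Gad2 and Slc32a1, the nearest of 11260 protein-coding genes with at least 5 CPM on average was Prr5l, at a difference of 0.10 log2 units. Tma16 (0.12), Trmt10c (0.16), Leprotl1 (0.18) and Exoc3 (0.18) came next. The mean profile itself varied by 0.37 log2 units, so these distances are of a flat profile. Singly, Gad2 ran from 16.2 to 60.0 CPM and Slc32a1 from 5.39 to 18.6 CPM. Genes near the mean profile need not be near either of them. For Slc17a6, which varied by 0.86, the nearest were Rab9b (0.18), the GABA-A receptor subunit gene Gabra3 (0.22), the homeobox gene Meis2 (0.22), the neuropeptide Y receptor gene Npy1r (0.25) and Ktn1 (0.25). Each of these 5 had its lowest values in CAST 1 and hybrid 2, as Slc17a6 did. Gabra3, for example, stood at 11.98 and 11.9 CPM there and at 21.7 to 67.4 CPM in the other 7 libraries.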

How the data were processed

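RNA sequencing libraries of 3 mouse lines were analysed, 3 per line. STAR and the mm10 build are named, per the submitters' processing notes. For STAR's version, the counting tool, the annotation and the strand setting, nothing is given in the sources used. Deposited values are counts, whole numbers of reads per Ensembl gene, with no normalization by the authors that the values show. The number after B in a column name was read as the replicate number in the sample titles. Symbols, coordinates and exon lengths come from GENCODE M21 (GRCm38, also called mm10), which gave a symbol for 27031 of 27071 IDs.

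Genes were filtered with filterByExpr (minimum count 10, minimum total 15), scaled by TMM and fitted with edgeR 4.0.16 (robust quasi-likelihood, all 3 lines in 1 fit, no covariates) in R 4.3.3. The fit was also run on simulated counts, drawn independently for each gene and library. These carry no trend with exon length, so they do not test how the fit handles that trend. P-values are two-sided and adjusted over all tested genes. Levels are CPM after TMM scaling. Intervals use the SE from the F statistic. Alternatives were DESeq2 1.42.0, its size factors in edgeR, no filter, a replicate block, an exon length offset, fits of 2 lines only, and leaving out libraries. The named genes are the members, the largest calls of each list (up to 3 per direction) or, without calls, its 2 most abundant genes, 5 checks of motor neuron identity, and the 5 genes nearest in profile. The members and the 17 lists (139 genes, 137 in the matrix, 109 tested) were chosen with earlier results of these data known. Gene Sox9 of the astrocyte list was not analysed here. The values of 1 gene that this rule names are not reported here. Other genes named were chosen after their values were seen.

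Libraries were not paired by replicate number in the reported fit: 2 of 9 same-number pairs deviated together (correlation above 0.1).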

Additional observations from a re-analysis of the deposited data

How the results depend on the processing

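The count of called genes depended on the tool and the libraries. DESeq2 called 939 genes in CAST against 129 (edgeR 136), 2100 in the hybrid against 129 (edgeR 1041), 1597 in the hybrid against CAST (edgeR 891) and 2506 in the joint test (edgeR 1192). With the replicate block the counts were 6, 561, 526 and 651. The replicate numbers do not pair the libraries by design: 3 of 9 libraries deviated most like the library of another line with their own number. Under the block Slc6a5 passed in the hybrid against 129 (adjusted p = 0.0465). Not called with the block, by edgeR adjusted p, were Lmx1b in CAST (0.126) and the hybrid (0.0652) against 129, Pvalb (0.0663) and Mog (0.0772) in the hybrid against 129, and Gphn (0.0535), Pvalb (0.0756) and Mog (0.0501) in the hybrid against CAST. With the exon length offset 268 genes were called in CAST against 129, and 230 without both CAST 1 and hybrid 2. Leaving out 1 library at a time gave 26 to 157, 522 to 1717, 643 to 923 and 788 to 1485 calls, lowest without 129 2 in both comparisons with 129 and in the joint test, and highest in the hybrid against 129 without CAST 1.

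Over 24 member contrasts, 15 kept their direction under all alternatives. Reversed log2 fold changes, none called, were as follows. For CAST against 129, the exon length offset gave −0.16 for En1 and 0.27 for Gad1, and leaving out both CAST 1 and hybrid 2 gave −0.55 for En1 and −0.047 for Gad2. For the hybrid against CAST, Pax2 was 0.0186 by DESeq2, 0.0191 with its size factors, 0.10 with the length offset and 0.000215 with 2 lines in the fit, Slc6a5 was 0.085 with the length offset, and Lhx5 was 0.27 without both libraries. Slc17a6 was 0.000151 without both in the hybrid against 129. Without 1 library at a time, or both, the ranges were −0.55 to 0.64 for En1 and −0.047 to 0.49 for Gad2 in CAST against 129, and −1.23 to 0.000151 for Slc17a6 in the hybrid against 129. For the hybrid against CAST they were −0.30 to 0.43 for Pax2, −0.57 to 0.67 for Slc17a6, −0.12 to 0.66 for Slc32a1, −0.78 to 1.003 for Slc6a5 and −5.74 to 0.27 for Lhx5. The lowest Lhx5 value is without hybrid 3, where both remaining hybrid libraries have 0 counts, so it depends on the prior count and is no bound. The causes were not tested. Depth limits Lhx5 most, with 62 counts in all.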
